A study of Mus musculus with 4 samples.

Results

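The plasminogen activators and their inhibitors were followed as 5 genes, chosen by symbol among the 32285 genes of the count tables: Plau, Plat, Plaur, Serpine2 and Serpinb2. Plau encodes urokinase and Plat encodes tissue-type plasminogen activator, the proteases that cut plasminogen into active plasmin. Plaur encodes the membrane receptor that holds urokinase at the cell surface. Serpine2 encodes protease nexin-1, a secreted serpin that blocks thrombin and both activators, and Serpinb2 encodes plasminogen activator inhibitor 2, a serpin of the intracellular clade that also inhibits urokinase. Plasmin dissolves fibrin and cuts other matrix proteins, and this system is known for its part in wound repair, cell migration and tumor invasion. Other genes of the serpin family are not described here, though some were counted among the other pathway genes or the cell markers.

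The counts came from droplet scRNA-seq of orthotopic tumors of KPC cells, a mouse pancreatic ductal adenocarcinoma line, grown in C57BL/6 mice made obese by a high-fat diet (age in the labels, 7 months, which differs from the age in the study's methods). There were 4 libraries, 1 per condition. The transgenic strain Pdgfrb-TK received ganciclovir in the library called Pdgfrb-TK/GCV and only the PBS vehicle in the library called Pdgfrb-TK/PBS, while WT animals received the peptide D-CAN (library D-CAN) or the vehicle (library WT/PBS). In the Pdgfrb-TK strain the Pdgfrb promoter drives thymidine kinase, so that ganciclovir kills dividing cells in which that promoter is active, some pericytes as well as fibroblasts, and the Pdgfrb-TK/PBS mice carry the transgene without the drug. D-CAN is a peptide that homes to cells like adipose stromal cells and triggers their death. Suspensions were pooled over mice by treatment before capture, so each condition is 1 sample with no replicate error, cells were not used as replicates, and no test across conditions was possible. The intervals given are exact 95% intervals that cover counting error only.

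The libraries held 10178 to 12280 cells with at least 200 genes and 84000174 to 155382616 unique molecular identifiers (UMIs). Classes were called from markers, and 55.0% to 61.3% of the cells were gated, holding 74.4% to 83.7% of the UMIs. The 10 leading genes of the main classes held 3 to 6 of their own markers and none of another class. Because cells were assigned by these same markers, this follows in large part from the gate and is no independent check. A further 343 to 606 cells per library had markers of a second, unrelated class and were left out, which is how doublets were treated. Related pairs were exempt, namely fibroblast with pericyte or mesothelial, KPC tumor with mesothelial, and macrophage/monocyte with dendritic. Doublets of those pairs could thus remain in a class. Between 92 and 108 barcodes per library also occurred in another library. Cells with more than 20% mitochondrial UMIs made up 4.48% of Pdgfrb-TK/GCV, 8.42% of Pdgfrb-TK/PBS, 29.3% of D-CAN and 18.2% of WT/PBS. Fibroblasts numbered 272, 458, 982 and 1627 and pericytes 2, 27, 31 and 105, with GCV first, its PBS library next, then D-CAN, and WT/PBS last. Wherever 4 values follow each other below, the libraries stand in that order.

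Plau lies on chromosome 14 (20836660 to 20843385, plus strand), Plaur on chromosome 7 (24462484 to 24475968, plus strand), Plat on chromosome 8 (22757727 to 22782844, plus strand), Serpine2 on chromosome 1 (79794197 to 79861180, minus strand) and Serpinb2 on the same chromosome (107511423 to 107535478, plus strand), in GENCODE release M21 of mm10. RefSeq promoter sequences (GRCm38.p6) matched 3 of the 5 genes, namely Plaur, Serpine2 and Serpinb2. The 250 bases before the start are shown for each of these genes, and Plau and Plat are not shown because they had no match. Capitals mark TGANTCA (the motif of AP-1 factors), TATAAA and GGGCGG (the GC box), each searched on both strands, with overlapping matches joined.
Plaur, chr7:24462233-24462482, plus strand: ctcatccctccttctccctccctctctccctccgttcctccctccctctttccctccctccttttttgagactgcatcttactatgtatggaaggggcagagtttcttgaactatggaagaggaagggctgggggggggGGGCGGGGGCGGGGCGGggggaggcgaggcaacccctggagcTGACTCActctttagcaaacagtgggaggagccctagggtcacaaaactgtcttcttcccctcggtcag
Serpine2, chr1:79858666-79858915, minus strand: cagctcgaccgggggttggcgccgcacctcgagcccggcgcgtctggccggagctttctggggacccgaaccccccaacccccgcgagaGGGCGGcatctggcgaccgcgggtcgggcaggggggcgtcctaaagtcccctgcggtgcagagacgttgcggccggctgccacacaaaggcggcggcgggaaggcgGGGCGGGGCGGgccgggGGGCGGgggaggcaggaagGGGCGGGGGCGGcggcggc
Serpinb2, chr1:107511173-107511422, plus strand: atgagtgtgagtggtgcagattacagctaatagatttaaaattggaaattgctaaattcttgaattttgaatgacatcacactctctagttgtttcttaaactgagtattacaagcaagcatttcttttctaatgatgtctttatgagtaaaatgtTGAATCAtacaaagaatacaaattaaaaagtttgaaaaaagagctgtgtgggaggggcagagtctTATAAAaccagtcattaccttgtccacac

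TGANTCA stood once in the Plaur window, 69 bases before the start, and once in the Serpinb2 window, 94 bases before the start, and it occurred in 6.75% of all 32851 promoter windows of this length. TATAAA stood 29 bases before the Serpinb2 start and in 12.4% of all windows. GGGCGG was found 3 times in the Plaur window and 6 times in the Serpine2 window, against at least 1 match in 32.7% of all windows, and was not found in that of Serpinb2. The Serpine2 window lies inside the annotated gene and holds 78.8% G and C, against 59.6% for Plaur and 32.4% for Serpinb2. A match describes the sequence and says nothing of binding in these cells.

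Plau was highest in macrophages/monocytes in 3 libraries by value, with overlapping intervals of other classes in WT/PBS and Pdgfrb-TK/PBS. Its level in macrophages/monocytes was 51.5, 26.4, 63.0 and 50.1 counts per 1000000 UMIs of the class (CPM), from 526, 41, 366 and 327 UMIs. In fibroblasts it was 14.8, 28.0, 37.4 and 40.5 CPM. The intervals of both classes overlapped in Pdgfrb-TK/PBS (19.0 to 35.9 and 22.04 to 35.1), as did that of neutrophils (8.57 to 35.6), while macrophages/monocytes lay above fibroblasts in the other libraries. In WT/PBS the macrophage/monocyte interval (44.8 to 55.8) overlapped that of endothelial cells (31.7 to 46.4). KPC tumor cells had 5.80, 2.01, 3.54 and 8.01 CPM, a low level that was 5.62% to 16.0% of the macrophage level, when the summed macrophage markers in tumor cells were 0.1003% to 0.576% of theirs. The gate left out cells rich in markers of a second class, so that such marker percents, here and below, are themselves low. Endothelial cells ranged from 1.93 CPM (1 UMI) in Pdgfrb-TK/PBS to 38.5 CPM in WT/PBS. Urokinase RNA was thus counted in each of these classes, in a minority of cells, and the part of free RNA in the lower levels was not tested. Of macrophages/monocytes, 18.9%, 6.85%, 18.6% and 19.7% had a UMI (8.47%, 5.62%, 8.27% and 7.91% after thinning to 2000 UMIs, without the 66, 162, 114 and 45 shallower cells). Among T/NK cells, which gave the background of free RNA, the shares were 0% (upper limit 2.48%), 0% (9.25%), 1.56% and 0% (8.41%) at median depths of 2351, 1349.5, 3526 and 2844.5 UMIs, against 6454, 2748, 5478.5 and 7076.5 in macrophages/monocytes.

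Plat, the tissue-type activator, was a stromal gene with a second site in the tumor cells. Fibroblasts had 428, 330, 388 and 284 CPM, and the pericytes of the last 3 libraries had 305, 366 and 413 CPM. The pericyte and fibroblast intervals overlapped in Pdgfrb-TK/PBS and D-CAN, and pericytes lay above fibroblasts in WT/PBS. Endothelial cells had 263, 79.2, 185 and 125 CPM and KPC tumor cells 197, 78.8, 77.2 and 102 CPM. Tumor cells held 66.4%, 67.7%, 50.1% and 50.4% of all Plat UMIs, beside 62.2%, 74.7%, 65.4% and 61.1% of the UMIs of all genes. Fibroblasts held 5.90%, 12.1%, 32.9% and 29.6% of the Plat UMIs, beside 2.54%, 3.19%, 8.56% and 12.9%. Macrophages/monocytes had 19.98 to 32.2 CPM, which is 16.4% to 41.0% of the tumor cell level, beside 5.43% to 14.1% for the summed tumor markers.

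Plaur, the urokinase receptor, was highest in neutrophils in every library, at 957, 1075, 588 and 521 CPM. Macrophages/monocytes followed with 274, 189, 240 and 216 CPM, level within the intervals with KPC tumor cells in WT/PBS (219 CPM) and above them in the other libraries (180, 164 and 171 CPM). Fibroblasts had 159, 118, 88.1 and 189 CPM and endothelial cells 87.7, 86.9, 87.0 and 88.4 CPM, a difference smaller than the counting error of any of them. In T/NK cells Plaur was at 82.9, 34.1, 12.03 and 89.6 CPM, which was 46.0%, 20.8%, 7.04% and 40.9% of the tumor cell level beside 16.9%, 16.5%, 4.12% and 8.51% for the tumor markers. In B cells of Pdgfrb-TK/GCV, Pdgfrb-TK/PBS and D-CAN Plaur was at 153, 145 and 123 CPM, with intervals overlapping those of fibroblasts. These levels were 84.8%, 88.6% and 72.0% of the tumor cell level beside 17.6%, 22.1% and 9.68% for the tumor markers. A UMI of Plaur was found in 79.9%, 70.2%, 84.9% and 82.0% of KPC tumor cells. Of those with at least 2000 UMIs, thinned to 2000, the shares were 27.3%, 25.3%, 25.2% and 30.5%. KPC tumor cells held 60.2% to 75.9% of the Plaur UMIs of a library, beside 61.1% to 74.7% of all its UMIs. Neutrophils held 1.71% to 3.93% of the Plaur UMIs, beside 0.388% to 1.06% of all UMIs.

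**Figure D1:**
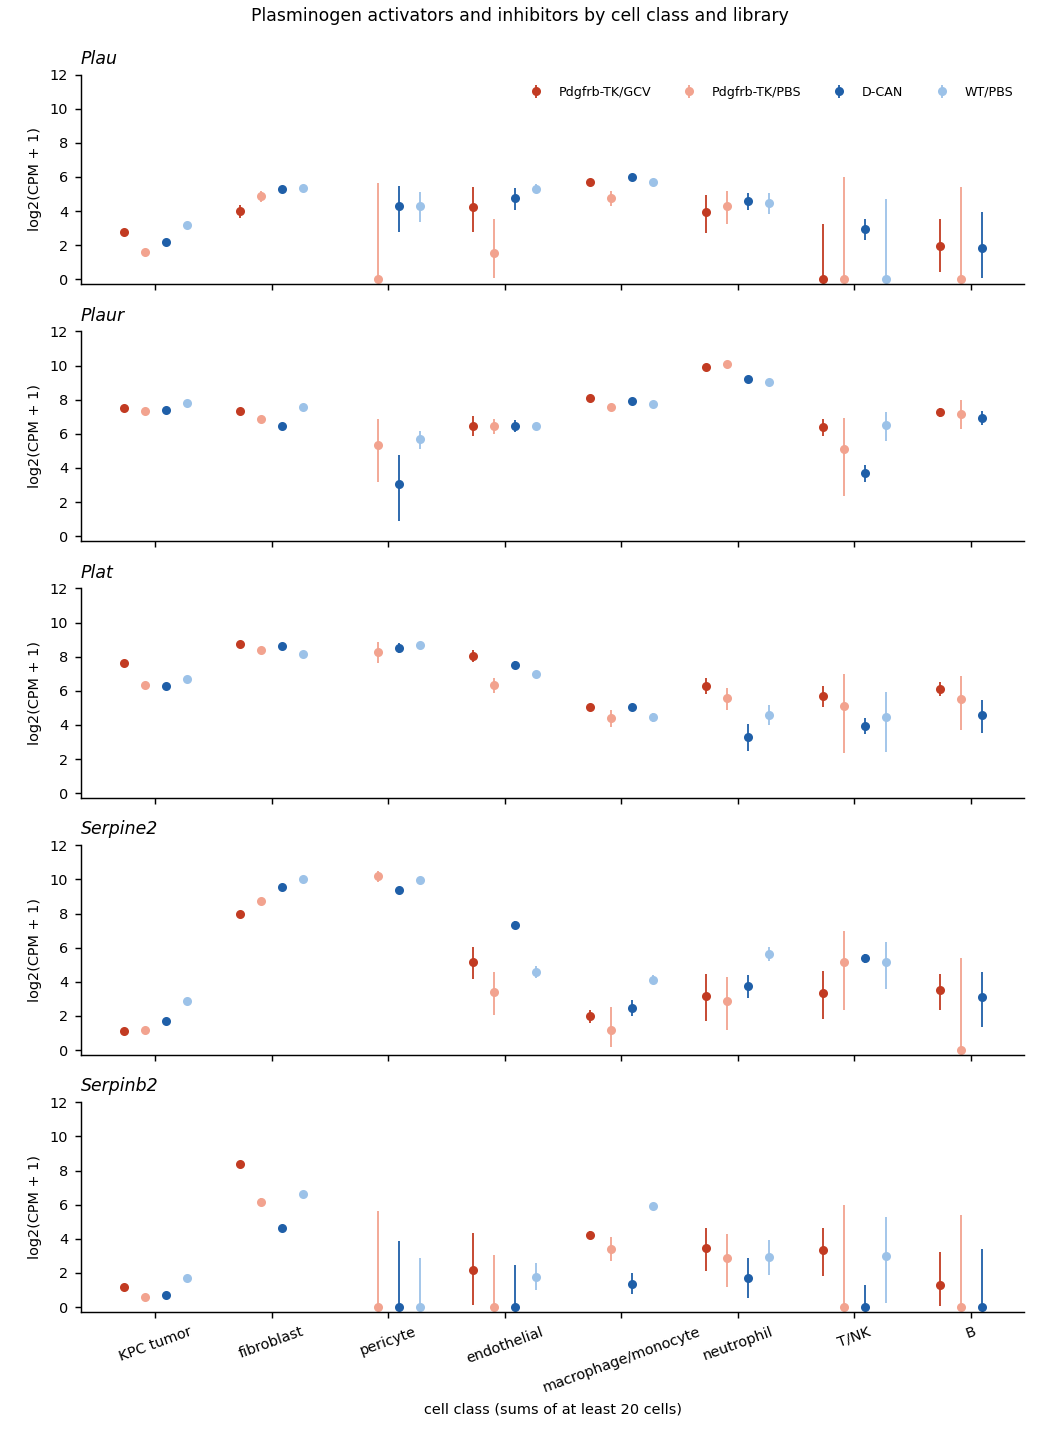
Levels of the 5 genes as log2(CPM + 1) (vertical axes) by cell class (horizontal axis) and library (colors), for sums of at least 20 cells; points are sums of UMIs and bars are exact 95% Poisson intervals, which cover counting error only. Among the classes drawn, Plaur peaks in neutrophils at 521 to 1075 CPM, Serpine2 in fibroblasts and pericytes, and Serpinb2 in fibroblasts, where the libraries spread from 24.1 to 330 CPM. Mesothelial cells, with more Serpinb2 than fibroblasts by value in Pdgfrb-TK/GCV, Pdgfrb-TK/PBS and D-CAN, are not drawn, nor are dendritic cells.

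Serpine2 was a gene of fibroblasts and pericytes. Fibroblasts had 253, 433, 738 and 1042 CPM, and 41.2%, 37.3%, 73.2% and 83.0% of them had a UMI. Pericytes had 1155, 659.7 and 1020.3 CPM in the last 3 libraries, above fibroblasts in Pdgfrb-TK/PBS and with overlapping intervals in D-CAN and WT/PBS. No fibroblast intervals overlapped between libraries. Fibroblasts held 68.9% to 86.4% of all Serpine2 UMIs, so the whole-library level, 9.30, 18.5, 73.1 and 159 CPM, joined fewer fibroblasts with less Serpine2 per fibroblast in the Pdgfrb-TK pair. In such a sum over all cells, fewer cells of a type and less RNA per cell cannot be told apart.

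In KPC tumor cells and macrophages/monocytes Serpine2 was at or near the level of free RNA. KPC tumor cells had 1.21, 1.26, 2.30 and 6.37 CPM, which was 0.478%, 0.291%, 0.312% and 0.612% of the fibroblast level, below the 0.630%, 0.392%, 0.383% and 0.705% that the summed fibroblast markers reached in the same cells. The gate left out cells rich in those markers, so that these percents are themselves low. Tumor cell Serpine2 is read here as background, ratios between libraries included. Macrophages/monocytes had 2.94, 1.29, 4.48 and 16.4 CPM, 0.564 to 2.75 times the percent of the marker list. Endothelial cells stood apart in D-CAN, with 160.5 CPM from 131 UMIs in 33.7% of 101 cells, or 21.8% of the fibroblast level against 0.734% for the fibroblast markers. In the other libraries endothelial cells had 35.1, 9.66 and 22.7 CPM (10, 5 and 66 UMIs). T/NK cells of D-CAN had 40.8 CPM from 105 UMIs, or 5.53% of the fibroblast level against 0.550% for the fibroblast markers. Those of the other libraries had 9.21, 34.1 and 34.5 CPM, from 4, 2 and 5 UMIs.

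Serpinb2 was found mainly in a minority of fibroblasts. The fibroblast level was 330, 71.4, 24.1 and 95.7 CPM, but only 33.1%, 9.39%, 2.65% and 8.24% of fibroblasts had a UMI, and single cells weighed heavily: the cell with most UMIs held 13.3%, 13.1%, 50.2% and 10.5% of them. Fibroblasts held 55.4% to 62.6% of all Serpinb2 UMIs in each library. Mesothelial cells, of which the libraries had 14, 20, 23 and 1, had 540, 335 and 183 CPM in the first 3, from 108, 46 and 55 UMIs, and 89.1% of the last came from 1 cell. Macrophages/monocytes had 17.9, 9.67, 1.55 and 59.8 CPM (183, 15, 9 and 390 UMIs). No UMI was found in any pericyte, which for the 105 pericytes of WT/PBS leaves room for up to 6.19 CPM. In T/NK cells 0.680%, 0%, 0% and 2.38% of cells had a UMI.

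**Figure D2:**
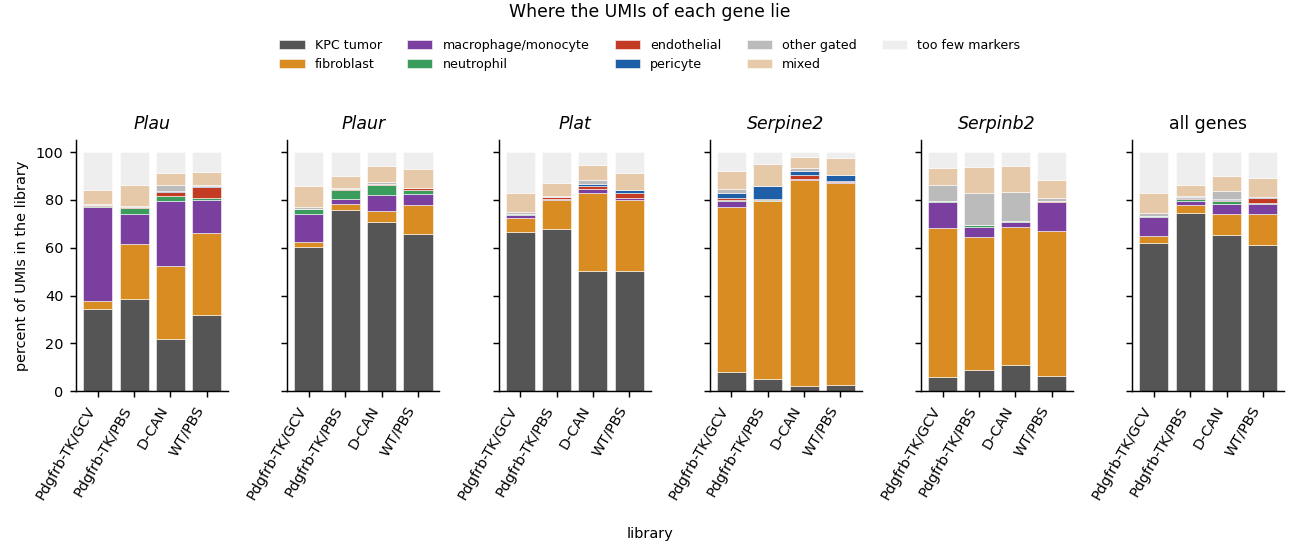
Percent of the UMIs of each gene that lay in each cell class (stacked bars, vertical axis) for the 4 libraries (horizontal axis), with all genes together in the last panel. Fibroblasts hold 68.9% to 86.4% of Serpine2 and 55.4% to 62.6% of Serpinb2 but 2.54% to 12.9% of all UMIs. Tumor cells hold most of Plaur, as they do of all UMIs.

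Within fibroblasts both inhibitors varied with the state of the cell. Fibroblasts with 3 or more detected genes of an inflammatory CAF list (iCAF: Clec3b, Il6, Cxcl12, Has1, Pi16, Dpt, C3, Ly6c1, Efemp1 and Cd34) had 562, 58.0, 9.52 and 178 CPM of Serpinb2, and those with none had 9.55, 46.6, 3.39 and 17.4 CPM. Fibroblasts with 1 or 2 iCAF genes lay between them in Pdgfrb-TK/GCV (224 CPM) and WT/PBS (90.6 CPM), where no intervals overlapped. In Pdgfrb-TK/PBS (86.9 CPM) and D-CAN (70.3 CPM) this middle group was the highest, so Serpinb2 did not follow the number of iCAF genes there. In D-CAN 1 cell held 50.2% of the fibroblast Serpinb2 UMIs, and its part in this order was not tested. Serpine2 lay the other way in 3 libraries, with 272, 108, 665 and 500.2 CPM in fibroblasts with 3 or more iCAF genes against 283, 1258, 1292 and 1533 CPM in those with none. A list of this kind marks a range rather than a type: 127, 149, 239 and 392 fibroblasts lay near the cut. The median depth was 11098, 5050.5, 11102 and 14858 UMIs with 3 or more iCAF genes and 7069, 3842, 3606 and 7678 with none, and its part in the difference was not tested.

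Mesothelial markers also moved with the inhibitors. The gate did not leave out fibroblasts with mesothelial markers, so doublets of both classes could be among them, and their part was not tested. Fibroblasts with 2 or more of the 10 mesothelial markers made up 36.0%, 15.9%, 12.7% and 2.89% of fibroblasts, and the summed level of the list in fibroblasts was 272, 245, 218 and 66.0 CPM. In these cells Serpinb2 was at 433, 154, 17.3 and 170.03 CPM, and in fibroblasts with no mesothelial marker it was at 133, 20.96, 36.8 and 99.6 CPM. At this cut it was thus lower without the markers in every library but D-CAN. In D-CAN 1 cell held 50.2% of the fibroblast Serpinb2 UMIs. Cells with 1 or more markers held 44.6%, so that cell had none and weighed heavily in the 36.8 CPM. With 1 or more markers WT/PBS had 88.2 CPM, below the 99.6 CPM with none, and the higher value there rested on 47 cells. Serpine2 was higher in fibroblasts with no mesothelial marker in all 4 libraries, at 420.4, 772, 1000.2 and 1130.1 CPM against 161, 25.4, 407 and 635 CPM in those with 2 or more.

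Plat and Plaur varied within the tumor cells and the macrophages. KPC tumor cells with no detected gene of a gastric list (Tff1, Tff2, Gkn1, Gkn2, Muc5ac, Muc6, Agr2, Ctse, Vsig1 and Anxa10) had 236, 153, 134 and 133 CPM of Plat, and those with 3 or more had 144, 54.9, 46.4 and 86.7 CPM. Plat was thus lower in gastric-type tumor cells in each library. Tumor cells with 3 or more cycling genes had 134, 54.9, 52.2 and 87.8 CPM of Plat, also below the 227, 87.3, 91.4 and 109 CPM of tumor cells with none. Macrophages/monocytes with 3 or more genes of an Arg1 list (Arg1, Spp1, Vegfa, Slc2a1, Bnip3, Hilpda and Ndrg1) had 294, 412, 369 and 212 CPM of Plaur against 239, 100.2, 109.8 and 208 CPM with none, a difference that was small in WT/PBS.

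**Figure D3:**
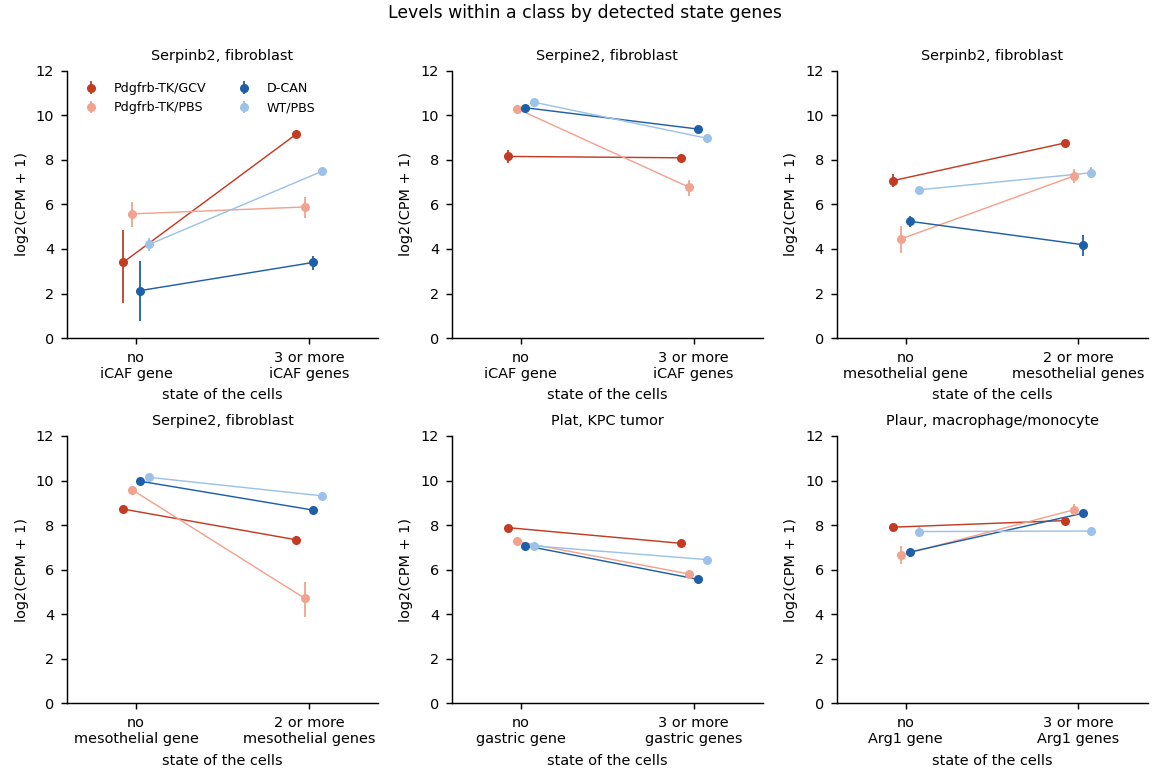
Levels as log2(CPM + 1) (vertical axes) in cells of 1 class with none, or with several, of the detected genes of a state list (horizontal axes), by library (colors), with exact 95% Poisson intervals as bars; the cells in between are not drawn. Serpine2 is lower in fibroblasts with 2 or more mesothelial genes than in those with none in all 4 libraries, Serpinb2 is higher in all but D-CAN, and Plat is lower in tumor cells with 3 or more gastric genes. The D-CAN level of Serpinb2 with no mesothelial gene rests largely on 1 cell.

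The treated libraries were next compared, class by class, with the untreated library of the same strain, for genes with at least 100 UMIs in both libraries together. A gene was called past 2-fold when its log2 ratio, with 1 CPM added on each side, was at least 1 in size, and the PBS libraries of both models were compared in the same way to show how far untreated libraries lie apart.

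For Pdgfrb-TK/GCV against Pdgfrb-TK/PBS, 4 of 16 pairs of gene and class were past 2-fold, all higher after GCV. In KPC tumor cells these were Plau, at 5.80 against 2.01 CPM or 2.89-fold (interval 2.37 to 3.55), and Plat, at 197 against 78.8 CPM or 2.50-fold (2.42 to 2.58). The summed macrophage/monocyte markers in the same tumor cells were at 42.3 against 13.9 CPM, and their part in the Plau ratio was not tested. With 2 of 5 members past 2-fold, tumor cells compare with 6.03% of all genes tested there. In fibroblasts 1 of 5 was past 2-fold (5.24% of all genes), Serpinb2, at 330 against 71.4 CPM or 4.62-fold (3.96 to 5.42). Plat in endothelial cells was 3.32-fold higher (2.24 to 4.99), on 75 and 41 UMIs (24% of the former in 1 cell), as the single member with enough UMIs there (6.45% of all genes). None of 4 was past 2-fold in macrophages/monocytes (5.32% of all genes), where Plau was 1.95-fold higher (1.42 to 2.75), and the 1 in neutrophils, Plaur, was at 0.890-fold (4.32% of all genes). Serpine2 in fibroblasts was 0.584 of the PBS level (0.533 to 0.639) and did not reach 2-fold.

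Beside the Serpinb2 difference in this pair, more Pdgfrb-TK/GCV fibroblasts had 2 or more mesothelial markers (36.0% against 15.9%). Their median depth was also higher (10646.5 against 4841 UMIs), and its part in these shares was not tested. The summed level of the mesothelial list differed little, at 272 against 245 CPM. In D-CAN against WT/PBS the markers and Serpinb2 went opposite ways. There 12.7% against 2.89% of fibroblasts had 2 or more, while Serpinb2 was at 24.1 against 95.7 CPM. Of the fibroblast Serpinb2 UMIs, 91.0% in Pdgfrb-TK/GCV and 88.5% in Pdgfrb-TK/PBS lay in cells with 1 or more mesothelial markers. In fibroblasts with none the log2 ratio of Serpinb2 between these 2 libraries was 2.61, on 96 and 22 UMIs, and over all fibroblasts it was 2.19. That of Plau, by contrast, moved from -0.88, on 48 and 75 UMIs over all fibroblasts, to -2.24 on fewer UMIs. Without the cell richest in Serpinb2 the ratio was 2.19 as before.

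For D-CAN against WT/PBS, 6 of 20 pairs were past 2-fold, and only Serpine2 in endothelial cells was higher. In endothelial cells Serpine2 was at 160.5 against 22.7 CPM, 7.07-fold (5.22 to 9.65), as 1 of 4 members tested (12.1% of all genes), and 2.70 on the log2 scale without the richest cell against 2.77 with it. In fibroblasts 2 of 5 were past 2-fold (19.3% of all genes), both lower: Plaur, 88.1 against 189 CPM, which was 2.15-fold higher in WT/PBS (2.0002 to 2.31), and Serpinb2, 24.1 against 95.7 CPM or 0.252 (0.221 to 0.286). Because 1 cell held 50.2% of the fibroblast Serpinb2 UMIs in D-CAN, its log2 ratio of -1.95 became -2.74 without the richest cells. In macrophages/monocytes 2 of 5 were lower (14.7% of all genes), Serpinb2 with 9 against 390 UMIs, or 0.0259 (0.0118 to 0.0498), and Serpine2 with 26 against 107 UMIs, or 0.273 (0.171 to 0.423), a gene that in these cells was 1.15 and 1.52 times the percent of the free fibroblast markers. In KPC tumor cells 1 of 5 was lower (12.2% of all genes), Serpine2, whose tumor cell level was read above as background. Neutrophil Plaur was at 1.13-fold (1.01 to 1.26), so that 0 of 1 was past 2-fold there (24.2% of all genes). Plau in tumor cells was at 3.54 against 8.01 CPM, a plain ratio of 0.442 (0.386 to 0.506). With 1 CPM added on each side its log2 ratio was -0.99, just short of the threshold. Tumor cell Serpinb2, at 0.602 against 2.19 CPM or 0.275 (0.198 to 0.375), fell short because 1 CPM is added, as did its GCV ratio of 2.52 (1.67 to 3.91) on 1.25 against 0.494 CPM. In the Pdgfrb-TK pair that gene was at 0.6002 and 1.77 times the percent of the free fibroblast markers in tumor cells, at or near background.

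The 2 untreated libraries differed from each other past 2-fold in 8 of 19 pairs. Pdgfrb-TK/PBS had less than WT/PBS of Plau (0.251), Serpine2 (0.198) and Serpinb2 (0.225) in tumor cells, 3 of 5 members against 10.6% of all genes. Of these, Serpine2 was again at background. Tumor cell Serpinb2 was also low, at 0.494 against 2.19 CPM, or 1.77 and 3.25 times the percent of the free fibroblast markers. Fibroblast Serpine2 was at 0.415 (0.391 to 0.441), 1 of 5 members against 17.4% of all genes. Plau in endothelial cells, 1 of 3 members (12.8% of all genes), rested on 1 UMI in Pdgfrb-TK/PBS. Macrophage/monocyte Serpine2 (0.0786, on 2 against 107 UMIs) and Serpinb2 (0.162, on 15 against 390 UMIs) made 2 of 5 (16.7% of all genes). That Serpine2 was at 0.564 and 1.52 times the percent of the free fibroblast markers, at or near background. Plaur in neutrophils was 2.06-fold higher (1.82 to 2.33) in Pdgfrb-TK/PBS, 1 of 1 (20.1% of all genes). Without replicates, the treated comparisons and differences between libraries of this kind cannot be told apart, and depth and mitochondrial share also differed between them. Of 36 ratios of treated to untreated libraries, thinning to 2000 UMIs moved 17 beyond their counting interval. Leaving out cells with more than 20% mitochondrial UMIs moved 5. Whether depth or mitochondrial share caused any of the ratios was not tested.

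**Figure D4:**
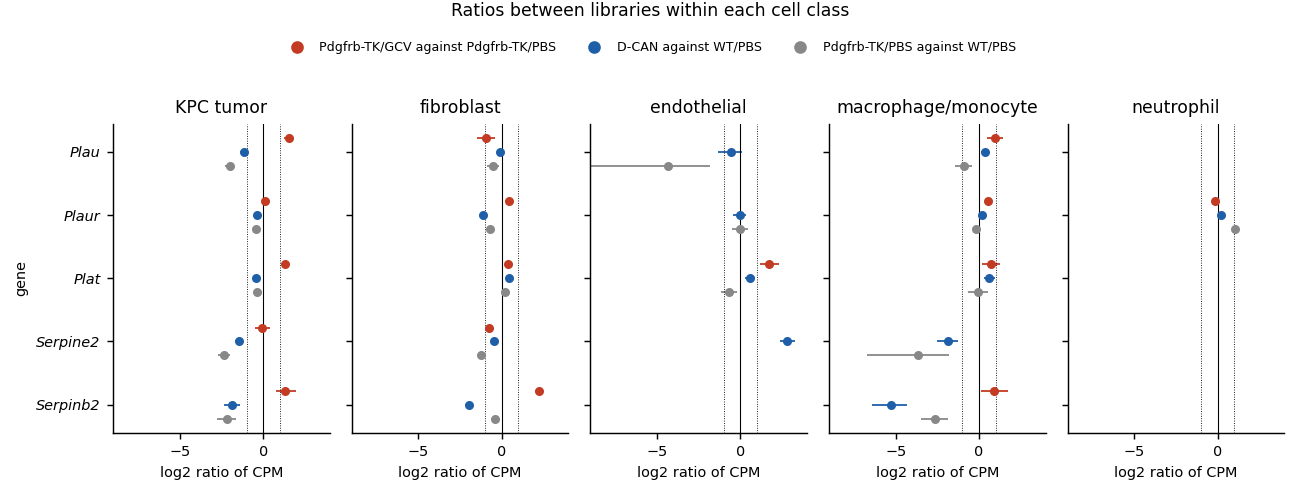
Log2 ratios of CPM (horizontal axes) of the 5 genes (vertical axis) in 5 cell classes for the treated libraries against their PBS libraries and for PBS against PBS (colors), for genes with at least 100 UMIs; bars are exact conditional 95% intervals, dotted lines mark 2-fold, and no pseudocount is added, so low genes lie farther out than under the 2-fold rule (the bar of Plau in endothelial cells, PBS against PBS, runs past the axis). Serpinb2 in fibroblasts is 4.62-fold higher in Pdgfrb-TK/GCV and 0.252-fold in D-CAN, and several PBS ratios lie beyond 2-fold.

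Of 28 other genes of the pathway, chosen as the plasminogen receptors, other inhibitors, partners of the urokinase receptor and coagulation genes, those with at least 100 UMIs are described here beside the share of all genes past 2-fold. In KPC tumor cells 4 of the 20 with enough UMIs were higher after GCV and none lower (6.03% of all genes past 2-fold), with a median log2 ratio of 0.39 beside 0.12 over all genes. These were Egfr, a growth factor receptor (40.6 against 14.4 CPM), F2r, the thrombin receptor (218 against 90.5 CPM), and the leukocyte integrin genes Itgam (4.44 against 1.08 CPM) and Itgb2 (2.92 against 0.956 CPM). The summed macrophage/monocyte markers in the same tumor cells were at 42.3 against 13.9 CPM, and their part in the values of both integrin genes was not tested. In tumor cells of D-CAN 2 of 19 were higher (12.2% of all genes past 2-fold), Egfr (60.2 against 25.6 CPM) and Itgb3 (25.6 against 7.78 CPM). The surface receptors for plasminogen stayed within 2-fold in tumor cells in every comparison, with Anxa2 at 1465 to 1773 CPM and S100a10 at 1151 to 1495 CPM, while Plg itself, which is made in the liver, had 4 UMIs in tumor cells of WT/PBS and none in those of the other libraries.

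In fibroblasts 2 of 15 were higher after GCV (5.24% of all genes past 2-fold), Eno1, a glycolytic enzyme that also binds plasminogen (416 against 145 CPM), and A2m, a broad protease inhibitor (32.1 against 12.7 CPM). In D-CAN fibroblasts 3 of 17 were higher and 1 lower (19.3% of all genes past 2-fold). A2m was at 102 against 5.48 CPM, 18.6-fold (15.3 to 22.9), Vtn, the vitronectin that binds the urokinase receptor, at 61.3 against 5.73 CPM, 10.7-fold (8.77 to 13.2), and Thbd, thrombomodulin, at 80.8 against 30.4 CPM. F2rl1, a protease-activated receptor, was the lower one, at 4.06 against 9.41 CPM. The summed KPC tumor markers in the same fibroblasts were at 335 against 762 CPM, and their part in the F2rl1 values was not tested. Macrophages/monocytes of D-CAN (14.7% of all genes past 2-fold) had 1 of 14 higher, Itgam (297 against 121 CPM), and 3 lower: Procr, the protein C receptor (18.6 against 153 CPM), Thbd (9.65 against 44.7 CPM) and Itgav (204 against 471 CPM). A2m was also higher in fibroblasts of Pdgfrb-TK/PBS than of WT/PBS (2.32-fold). The 3 macrophage genes were also lower in Pdgfrb-TK/PBS than in WT/PBS, at 7.73, 17.4 and 142 CPM, and Itgam was higher there, at 467 CPM.

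Over the 34 sums of a class in a library with at least 20 cells, the genes whose log2(CPM + 1) was most like that of a member, among 8761 genes, differed from member to member. For Serpine2 they were Pdgfrb (Pearson's r = 0.89), Col8a1 (0.88) and Fbn1 (0.88). Plat had Calu (0.94), Tpm1 (0.92) and Parva (0.92), and Serpinb2 had Tmem119 (0.87), Saa3 (0.86) and Abi1 (0.84). Plaur had Sgms2 (0.87), Ier3 (0.84) and Ero1l (0.81), and Plau had Stx3 (0.81), Tbc1d8 (0.81) and Hacd4 (0.79). Among the members themselves r was highest for Plat and Serpine2 (0.61) and at most 0.40 for any other pair. These correlations are descriptions over sums that share libraries and depth.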

How the data were processed

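The authors deposited counts: whole-number UMIs per gene and cell from 10x 3' libraries aligned to mm10, without normalization. The submitters' notes name Cell Ranger and STAR 2.6, the file headers Cell Ranger 7.0.0, and the study's methods an earlier version. The label protocol describes nuclei of another tissue, so libraries were matched to conditions by their titles. Cells with at least 200 genes were kept. A marker counted as detected above the 99% Poisson quantile of free RNA (10% of the library's average profile), and a cell took the class with the largest share of its markers, at least 3. It was left out as mixed when a second, unrelated class passed 50% of that share. UMIs were summed per class and library (Python 3.11.15, numpy 2.4.6, scipy 1.17.1) as CPM with exact Poisson intervals, ratios had exact conditional binomial intervals, and shares had exact Clopper-Pearson intervals at 95%. Sums from under 20 cells were not ranked. The steps were tested on simulated data. Other genes were named if on the pathway lists with at least 100 UMIs, or among the 3 most alike to a member. Members and lists were chosen with earlier results of these data known. GFP and Tdtomato features were left out.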

Additional observations from a re-analysis of the deposited data

Results flagged for a closer look

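In 5 pairs of gene and class the ratio lay on opposite sides of 1 in the GCV and D-CAN comparisons, with both counting intervals clear of 1 and at least 1 of the ratios past 2-fold with 1 CPM added on each side. With 1 library per condition the difference between the comparisons was not tested. The values that follow are log2 ratios with 1 CPM added on each side. Plau in KPC tumor cells was at 1.18 after GCV and -0.99 after D-CAN, and Plat in the same cells was at 1.31 and -0.40. In fibroblasts Plaur was at 0.42 and -1.09, and Serpinb2 at 2.19 and -1.95. Serpinb2 in macrophages/monocytes was at 0.83 and -4.57, the D-CAN value resting on 9 UMIs against 390.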

How the results depend on the processing

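The pairs of gene and class past 2-fold numbered 4 for GCV against PBS and 6 for D-CAN against PBS. Across 10 alternatives each they ranged from 3 to 6 and from 4 to 8. The gate with at least 2 markers, leaving out the cell richest in a gene and leaving out fibroblasts with a mesothelial gene were chosen after seeing the data. Of 36 ratios, 3 that were past 2-fold changed sign, all when the untreated library of the other strain served as control. Plau in KPC tumor cells went from 1.18 to -0.40 on the log2 scale for GCV. For D-CAN, Serpine2 went to 0.55 in KPC tumor cells and to 1.26 in macrophages/monocytes. Some ratios short of 2-fold also changed direction with that control. Macrophage/monocyte Serpinb2 in Pdgfrb-TK/GCV, at 17.9 CPM, lay above Pdgfrb-TK/PBS (9.67) but below WT/PBS (59.8). Fibroblast Plaur in Pdgfrb-TK/GCV, at 159 CPM, lay above Pdgfrb-TK/PBS (118) but below WT/PBS (189). Tumor cell Plau in D-CAN, at 3.54 CPM, lay below WT/PBS (8.01) but above Pdgfrb-TK/PBS (2.01). That control moved 29 further ratios beyond their counting interval, thinning to 2000 UMIs moved 17, and scaling by the median of ratios moved 11. That scaling shifts all log2 ratios by 0.13 in KPC tumor cells for GCV and, for D-CAN, by 0.21 in KPC tumor cells, 0.20 in macrophages/monocytes, 0.16 in fibroblasts and 0.13 in neutrophils. The cause was not tested. A filter of 20 UMIs moved 6 of the 15 percents of genes past 2-fold. No paired analysis was possible because there is 1 library per condition, and no library could be left out. Depth limits pericytes and mesothelial cells, whose sums reach at most 595899 and 300376 UMIs.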
